A study of Mus musculus with 6 samples.

Results

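Mitogen-activated protein (MAP) kinase genes, the regulators that act on them and the transcription factors of the early response were compared between 2 mouse ovarian cancer lines grown as tumorspheres. The members were taken by gene symbol. They are the listed genes whose symbols begin as those of the MAP kinases and their activating tiers, Dusp, Spry, Spred, Rps6k, Ksr, Rasa, Rasgr, Fos, Jun, Ier, Nr4a, Atf, Klf, Etv, Ets, Elk, Cebp, Maf and Phlda genes. This gave 84 of the 7320 genes in the deposited table.

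ID8 cells derive from transformed ovarian epithelial cells of C57Bl6 mice. KMF cells, also named ID8-IP, were recovered from the ascites of C57Bl6 mice that carried ID8 tumors and expanded without anchorage ex vivo. The lines thus share the ID8 origin, and the study found DNA copy number differences between them. Both lines were kept for 5 days as untreated tumorspheres, floating cell clusters in 3D PromoCell XF medium. The 3 libraries of ID8 came from passages 23, 24 and 35, and those of KMF from passages 14, 17 and 22. Each group is 1 line, so the spread between libraries is that between passages and says nothing of other lines, and passage differs between the groups.

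In this pathway a growth factor receptor or integrin loads Ras with GTP, and a chain of kinases (MAP3K, MAP2K, MAPK) passes the signal on by phosphorylation to ERK, JNK or p38. The MAP kinases then act on proteins already present, among them Ets, Jun and Atf factors, which switch on immediate early genes such as Fos and Ier3 without new protein synthesis. Dual-specificity phosphatases (Dusp), Sprouty and Spred proteins are made in turn and dampen the chain. RNA levels measure the transcripts of these proteins, not their phosphorylation.

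The table lists only genes that the study had already called different on the same 6 libraries. Every member had therefore been selected on the contrast described here, and the differences between the lines are given as a description. Genes that match the rule but are not in the table, with all Egr genes and Srf among them, were not analysed here. Libraries held between 23108407 and 33212313 fragments on genes, of which the listed genes carried between 52.8% and 55.9%. Of the cell type markers, 8 of 12 for ovarian surface epithelium and mesothelium were listed, with Wt1 at a mean of 108 FPKM in ID8 and 77.3 in KMF (FPKM, fragments scaled to gene length and to the fragments of the library). Of these, 5 were called lower in KMF, with log2 fold changes of -4.08 for Lrrn4, -3.88 for Upk3b, -2.55 for Krt7, -1.02 for Gata4 and -0.45 for Wt1, and Msln was called higher (1.45). Their summed level, carried by Wt1, Gata4 and Msln, ranged from 238 to 305 FPKM in ID8 and from 207 to 257 in KMF. Only Cd74 of 11 leukocyte markers was listed, at 0.857 to 1.59 FPKM in ID8 and 0.215 to 0.391 in KMF. All 4 listed fibroblast markers of 8 were lower in KMF, with summed levels of 77.4 to 107 FPKM in ID8 and 13.5 to 25.9 in KMF. Of 5 endothelial markers Tek and Kdr were listed, with a summed level of 0.026 to 0.0877 FPKM in ID8 and 27.7 to 47.6 in KMF, all of the latter from Tek, since Kdr had 0 counts in each KMF library. The part of these shifts in the results below was not tested, and in bulk RNA fewer cells of a type and less RNA per cell cannot be told apart.

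The promoters of 4 members are shown because they hold the cyclic AMP and Jun response letters through which Creb, Atf and Jun proteins are known to bind early genes. They were chosen after their matches were seen. Each is a 300-base window from RefSeq on GRCm38.p6, from 250 bases before to 50 after an annotated start, printed 5′ to 3′ on the strand of the gene. Capitals mark TGACG, the full element TGACGTCA that contains it, or the variant TGACATCA, each searched on both strands. The windows are Fos at chr12:85473640-85473939 on the plus strand, Jun at chr4:95052173-95052472 on the minus strand, Dusp1 at chr17:26508423-26508722 on the minus strand, and 1 of the Maff windows at chr15:79347270-79347569 on the plus strand.
Fos: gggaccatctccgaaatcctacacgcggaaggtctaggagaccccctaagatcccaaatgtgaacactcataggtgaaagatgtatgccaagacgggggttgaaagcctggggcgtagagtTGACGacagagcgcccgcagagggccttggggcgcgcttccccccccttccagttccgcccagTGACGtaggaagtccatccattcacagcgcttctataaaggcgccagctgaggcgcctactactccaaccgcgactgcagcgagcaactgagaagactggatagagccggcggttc
Jun: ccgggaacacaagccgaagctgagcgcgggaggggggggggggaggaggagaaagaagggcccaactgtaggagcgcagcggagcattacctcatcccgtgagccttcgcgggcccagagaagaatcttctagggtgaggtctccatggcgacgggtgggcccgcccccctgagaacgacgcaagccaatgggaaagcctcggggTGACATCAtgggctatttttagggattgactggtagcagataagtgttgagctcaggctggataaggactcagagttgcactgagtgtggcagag
Dusp1: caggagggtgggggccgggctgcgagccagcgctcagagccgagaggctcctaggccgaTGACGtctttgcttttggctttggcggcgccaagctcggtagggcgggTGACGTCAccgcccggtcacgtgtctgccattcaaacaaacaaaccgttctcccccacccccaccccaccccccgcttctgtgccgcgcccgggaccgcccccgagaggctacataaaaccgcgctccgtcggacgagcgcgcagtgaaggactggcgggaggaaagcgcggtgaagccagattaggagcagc
Maff: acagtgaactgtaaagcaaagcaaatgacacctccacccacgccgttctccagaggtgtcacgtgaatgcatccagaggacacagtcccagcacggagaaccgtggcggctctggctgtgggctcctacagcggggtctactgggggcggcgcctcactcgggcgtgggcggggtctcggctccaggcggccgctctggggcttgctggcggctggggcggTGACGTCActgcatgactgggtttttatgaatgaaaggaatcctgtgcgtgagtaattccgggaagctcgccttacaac

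With positions counted from the start site, the Fos window holds TGACG with its first base at -129 and again at -66. The Jun window holds TGACATCA at -45. The full element lies at -143 in the Dusp1 window, with a further TGACG at -191, and at -29 in the Maff window. Of the 84 members, 67 matched a RefSeq symbol and had 88 windows. TGACGTCA was in 3.41% of the member windows (3 windows, of Mapk10, Maff and Dusp1), in 2.96% of the windows of all listed genes and in 1.79% of all 32817 windows. TGACG was in 36.4%, 28.5% and 20.8%, and TGACATCA in 5.68%, 1.87% and 3.62%. The 5 member windows with TGACATCA are of Dusp10, Jun, Junos, Klf6 and Maff, and the windows of Jun and Junos overlap and share 1 site. The Egr element GCGGGGGCG, also searched on both strands, was in 13.6% of the member windows, 5.34% of those of listed genes and 2.91% of all windows. The Klf and Sp letters GGGCGGG were in 51.1%, 45.2% and 25.6%, and the AP-1 letters TGANTCA in 5.68%, 5.53% and 7.81%. The Ets letters CCGGAAG were in 4.55%, 14% and 8.86%. The CArG box bound by Srf was in 1.14%, 1.47% and 1.63%. These shares count letters in a short window and say nothing of binding.

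Counts of the listed genes were refitted with edgeR, and a gene with a Benjamini-Hochberg adjusted p under 0.05 is termed called. The spread was estimated on these selected genes alone, also in the alternative fits, as was the main scaling between libraries. The adjusted p-values therefore describe selected genes and are no independent test. Of the members 79 had enough counts to be fitted, and 73 of these were called, beside 92.9% of all 6967 fitted genes of the table. In KMF 50 of the called members were higher and 23 were lower, where 45.4% of all fitted genes were called higher and 47.5% called lower. The share of higher members among those called was 68.5%, and that of all called genes 48.9%. Upper quartile scaling, which moved the median over all fitted genes by -0.11 on the log2 scale, called 34 members higher and 26 lower, a share of 56.7%, where that of all called genes was 41.5%. No member changed sign under any of the 14 alternative fits. At a change of at least 2-fold 23 members were called, 15 higher and 8 lower, beside 40.5% of all fitted genes. With limma on log2(FPKM + 1) this count was 11. Libraries of the lines did not overlap for 79 of the 84 members, beside 96.5% of all listed genes. As the genes were selected on these libraries, nothing is read from these counts. Over the fitted members the median log2 fold change was 0.50, against -0.23 over all listed genes that were fitted. With the genes near 0 in a line set to their bound, it was 0.46 over all 84.

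By class, of 30 fitted transcription factor genes (Atf6b taken in, and Junos and the Ier genes left out) 23 rose and 5 fell in KMF, and their median log2 fold change was 0.68. Of 22 fitted kinase genes of all tiers 11 rose and 11 fell in KMF, and their median was -0.01. Over all fitted genes 45.4% were called higher and 47.5% lower, and the classes were not tested against each other.

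**Figure D1:**
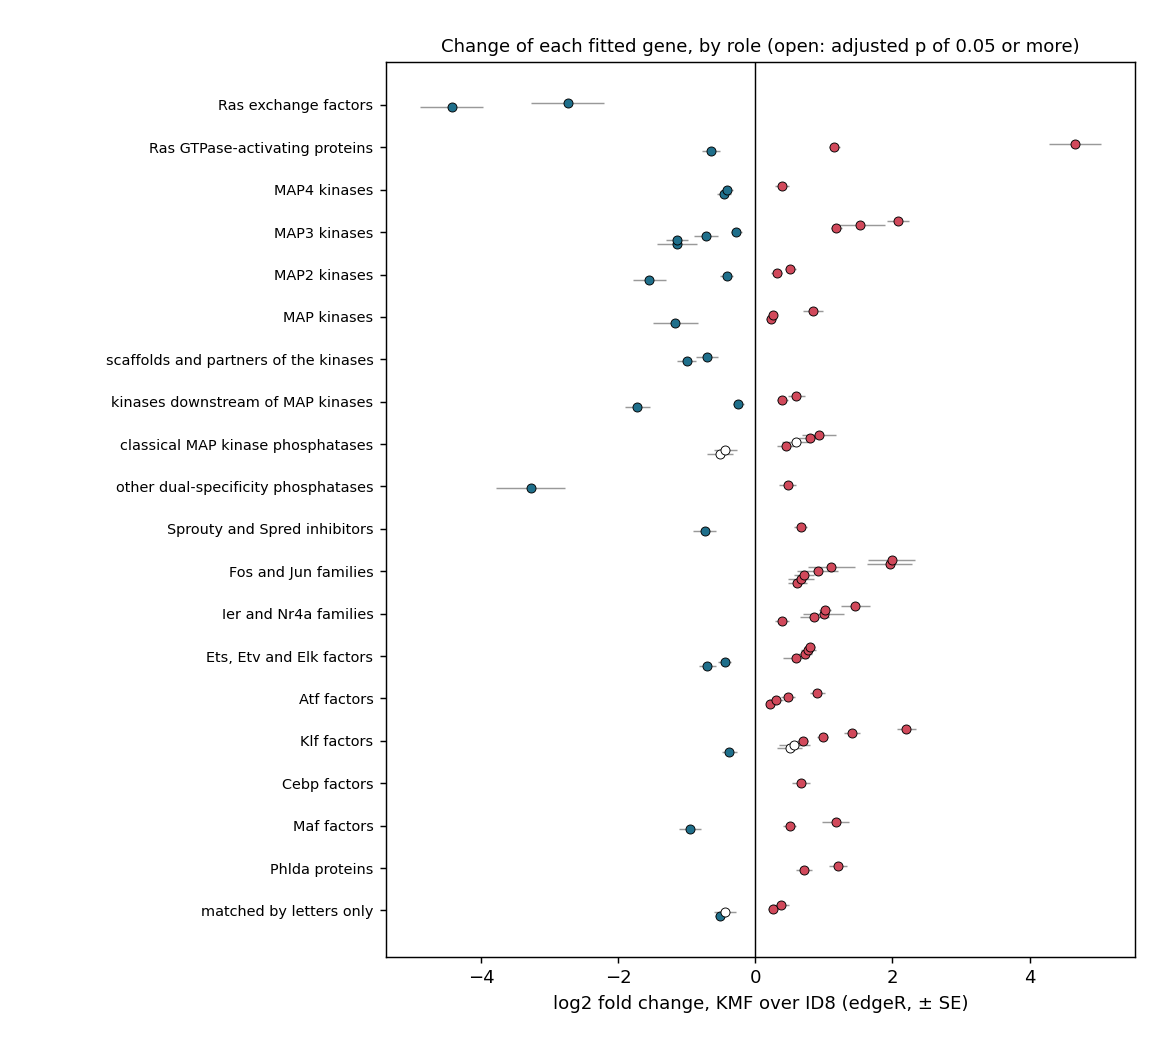
Each point is 1 fitted gene, placed by its log2 fold change of KMF over ID8 with its standard error from edgeR and grouped by role. Red points are called higher, blue called lower and open points were not called. All 7 genes of the Fos and Jun row and all 5 of the Ier and Nr4a row lie to the right of 0, whereas the kinase rows spread to both sides. Phlda2 is left out because its change is a lower bound.

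The Fos and Jun families form AP-1, the dimeric transcription factor that is the best known nuclear output of the cascade. All 7 listed genes with such symbols, the noncoding Junos among them, were called higher in KMF, beside 45.4% of all fitted genes. The table was selected on this contrast. Jun, the dimer partner activated by JNK (chr4:95049034-95052222, minus strand), was at 12.2, 13.9 and 11 FPKM in ID8 replicates 1 to 3 and at 76.9, 34.1 and 32.2 in KMF replicates 1 to 3. KMF replicate 1 stood far above the other KMF libraries, and each KMF library was above each ID8 library. The log2 fold change was 1.99 ± 0.34 (SE, edgeR adjusted p = 0.00244). Without KMF replicate 1 it was 1.48, with an edgeR adjusted p of 0.000208.

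Fos (chr12:85473890-85477273, plus strand) encodes the factor that pairs with Jun and is induced within minutes of a stimulus. It was at 4.92, 7.45 and 3.57 FPKM in ID8 and at 6.98, 11.7 and 15 in KMF. The lowest KMF library, replicate 1, lay under the highest ID8 library, so the lines overlapped. In KMF the library with the most Jun had the least Fos. The log2 fold change was 1.11 ± 0.34 (edgeR adjusted p = 0.0331). The call was kept in 9 of 14 alternative fits and was lost under upper quartile scaling and when ID8 replicate 1, ID8 replicate 3, KMF replicate 2 or KMF replicate 3 was left out, with adjusted p-values from 0.00461 to 0.108 over all fits.

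Junb, which can restrain Jun, was at 39.3, 48.3 and 44.3 FPKM in ID8 and at 71.2, 71.1 and 53.2 in KMF. It was the most abundant gene of the family in ID8, and its log2 fold change of 0.61 ± 0.14 was the smallest of the 7 (edgeR adjusted p = 0.0102). Fosl1, a Fos-related factor that is itself an AP-1 target, rose from a mean of 6.99 ± 0.61 (SD, n = 3) to 11.1 ± 1.7 FPKM, a log2 fold change of 0.71. Exons of Fosl1 overlap those of Ccdc85b by 1163 bases on the opposite strand. Fosl2 rose from 20.1 ± 5.1 to 31.0 ± 4.4 FPKM, a log2 fold change of 0.67. The Fosl2 call was lost under upper quartile scaling and without ID8 replicate 1, ID8 replicate 2 or KMF replicate 1. Fosb was low, at 0.497 to 0.727 FPKM in ID8 and 0.771 to 1.42 in KMF. Its call (log2 fold change 0.91 ± 0.30, edgeR adjusted p = 0.0433) was kept in only 4 of 14 alternative fits and depended on ID8 replicates 1 and 2 and KMF replicates 1 and 2.

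Junos, a noncoding transcript antisense to Jun, was at 0.384 to 0.586 FPKM in ID8 and 1.5 to 2.15 in KMF (log2 fold change 1.96 ± 0.33.) Exons of Jun and Junos overlap by 232 bases on opposite strands. Whether counting used strand is not given in the sources used here, so reads of the pair cannot be told apart. Summed over the 6 protein-coding genes, the Fos and Jun families were at 78.5, 98 and 91.5 FPKM in ID8 and at 205, 158 and 139 in KMF. Every KMF sum was above every ID8 sum, and KMF replicate 1 was highest.

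The surroundings of Jun on chromosome 4 also differed between the lines. Tek, the angiopoietin receptor gene that lies 174058 bases from Jun, had 2 counts in each ID8 library and 5224, 3476 and 4284 counts in the KMF libraries. Of the 6 listed genes within 1 Mb of Jun, Junos included, 3 were called higher and 2 lower. The median log2 fold change of those called was 1.95. Fos on chromosome 12 had 13 listed neighbours within 1 Mb, of which 2 were called higher and 8 lower. The median of those called was -0.41. Whether position bears on the change of either gene was not tested.

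**Figure D2:**
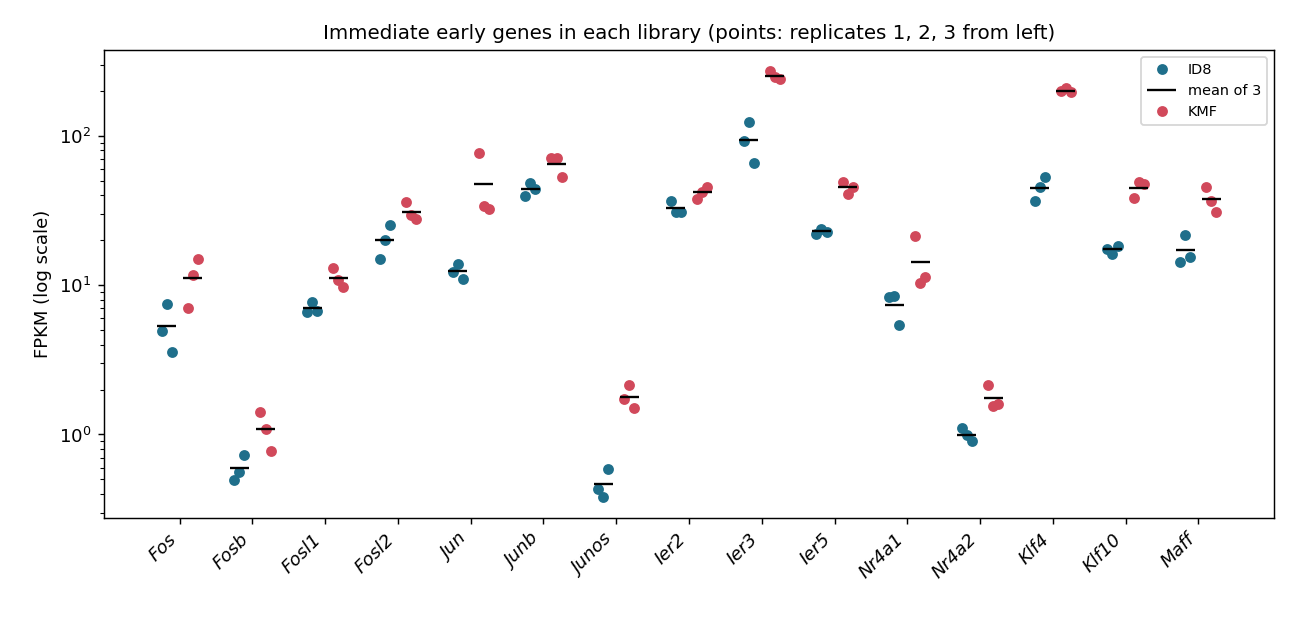
Points are the FPKM of single libraries on a log scale, ID8 in blue and KMF in red, for 15 early genes along the horizontal axis, and black bars are the means of 3. KMF lies above ID8 for every gene shown but Fos, where the lowest KMF library (6.98) is below the highest ID8 library (7.45), and for Jun KMF replicate 1 (76.9) stands apart from 34.1 and 32.2.

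The Ier and Nr4a genes are induced early by growth factors and stress. All 5 listed genes were called higher in KMF, where 45.4% of all fitted genes were. Ier3, a small protein that protects cells from death and prolongs ERK signalling (chr17:35821684-35822923, plus strand), was at 92.6, 124 and 66.2 FPKM in ID8 and at 271, 248 and 238 in KMF. The KMF libraries lay close together, well above the wider spread of ID8. The log2 fold change was 1.46 ± 0.21 (edgeR adjusted p = 0.00114).

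Ier5, which takes part in the heat shock response, was at 22.1, 23.7 and 22.8 FPKM in ID8 and at 49.3, 40.7 and 45.2 in KMF (log2 fold change 1.02 ± 0.09). Both lines were tight and did not overlap. Ier2 rose less, from 32.8 ± 3.1 to 41.8 ± 4.1 FPKM (0.39 ± 0.10), and was not called under upper quartile scaling, under the replicate block, without ID8 replicate 2 or without KMF replicate 3. Nr4a1, an orphan nuclear receptor, was at 8.29, 8.40 and 5.39 FPKM in ID8 and at 21.2, 10.3 and 11.4 in KMF. As for Jun, KMF replicate 1 was the highest library. The Nr4a1 call (log2 fold change 1.00 ± 0.30, edgeR adjusted p = 0.0343) was lost without KMF replicate 1, where the log2 fold change was 0.61. It was also lost without any 1 of the ID8 libraries, under upper quartile scaling and with limma on log2(FPKM + 1). Nr4a2 stayed low, at 0.906 to 1.10 FPKM in ID8 and 1.55 to 2.15 in KMF (0.86 ± 0.21).

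Within KMF, replicate 1 had the highest level of 9 of the 12 Fos, Jun, Ier and Nr4a genes. The same library was highest for 41 of all 84 members, ties left out, and for 32.0% of all listed genes. In ID8, replicate 2 was highest for 48 of the 84 members (32.5% of all listed genes), and replicate 3 lowest for 43 (37.9% of all listed genes). KMF replicate 1 came from passage 14, the lowest of all, and ID8 replicate 3 from passage 35, the highest. The part of passage in this pattern was not tested.

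Klf factors are zinc finger proteins that bind GC-rich promoters, several of them early genes. Klf4, known for its part in stem cell reprogramming (chr4:55527143-55532466, minus strand), was at 36.3, 45.3 and 53.2 FPKM in ID8 and at 198, 208 and 196 in KMF. The KMF libraries were nearly equal and all far above ID8, and the log2 fold change of 2.20 ± 0.14 was the largest of any fitted transcription factor among the members (edgeR adjusted p = 2.86e-05). The 3 other listed genes within 1 Mb of Klf4 also rose, and their median log2 fold change was 2.09.

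Klf10, an early gene of TGF-beta signalling, was at 17.5, 16.2 and 18.3 FPKM in ID8 and at 38.2, 48.9 and 47.9 in KMF (1.41 ± 0.11). Klf3 rose by 0.98 ± 0.08 and Klf13 by 0.69 ± 0.08 on the log2 scale. Klf2 fell from 10.8 ± 0.59 to 8.03 ± 0.45 FPKM (-0.38 ± 0.11), a call kept in 8 of 14 alternative fits and lost when ID8 replicate 1, ID8 replicate 3 or any 1 of the KMF libraries was left out. Klf6 and Klf11 overlapped between the lines and were not called. Klf6 was at 12.6 to 16.5 FPKM in ID8 and 16.3 to 24.2 in KMF (0.50, edgeR adjusted p = 0.0581), and Klf11 at 3.02 to 4.37 and 4.18 to 7.20 (0.57, edgeR adjusted p = 0.102). Klf6 was called with DESeq2 and without ID8 replicate 2 or KMF replicate 3, and Klf11 without KMF replicate 2.

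Ets family factors are substrates of ERK or, as with Etv4 and Etv5, are made in response to it. Etv3, a repressor, was at 5.05 to 5.25 FPKM in ID8 and 8.37 to 9.04 in KMF (log2 fold change 0.80 ± 0.07.) Etv4 was at 36.0, 37.8 and 32.4 FPKM in ID8 and at 58.5, 51.1 and 66.4 in KMF (0.77 ± 0.11, edgeR adjusted p = 0.00111). Etv5 was at 28.6, 27.1 and 22.6 FPKM in ID8 and at 43.5, 40.4 and 41.4 in KMF (0.72 ± 0.10, edgeR adjusted p = 0.00107). Neither gene overlapped between the lines. Elk3, a ternary complex factor, had a log2 fold change of 0.59 ± 0.18 that was called in only 6 of 14 alternative fits, and its call was lost without ID8 replicate 1 or 3 or KMF replicate 1 or 2. Exons of Elk3 overlap those of Cdk17, another listed gene, on the opposite strand.

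Other Ets genes went the opposite way. Ets1 fell from 10.3 ± 1.2 to 6.22 ± 0.52 FPKM (-0.70 ± 0.12, edgeR adjusted p = 0.00272), and Etv6 from 14.9 ± 1.2 to 10.6 ± 0.97 FPKM (-0.45 ± 0.10). Etv1, a close relative of Etv4 and Etv5, had 69, 52 and 10 counts in ID8 and 3, 2 and 1 in KMF. It was too low to be fitted, and against the floor of 3 counts per library it was at least 14.1-fold lower in KMF.

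Among the remaining factors, Maff rose and Mafk fell, although both encode small Maf proteins that lack a transactivation domain. Maff was at 14.4, 21.8 and 15.5 FPKM in ID8 and at 45.5, 36.9 and 30.9 in KMF (1.17 ± 0.20, edgeR adjusted p = 0.00264). Mafk was at 44.8, 43.0 and 49.1 FPKM in ID8 and at 29.4, 20.4 and 19 in KMF (-0.95 ± 0.16, edgeR adjusted p = 0.0026). Mafk was thus the more abundant of the pair in ID8 and Maff in KMF, each without overlap. Maf, a large Maf factor, rose by 0.50 ± 0.10. Beside 45.4% called higher and 47.5% lower over all fitted genes, 4 of the 5 genes with an Atf symbol were called higher. Atf6b, described further on, was called lower. Atf5, a factor of the stress response, had the largest change of the higher ones, from 28.8 ± 2.2 to 52.3 ± 5.4 FPKM (0.90 ± 0.11), and Atf4, which drives amino acid stress genes, was the most abundant, from 117 ± 14 to 159 ± 8.5 FPKM (0.48 ± 0.10). Atf7 (0.30 ± 0.10) and Atf1 (0.22 ± 0.07) changed least and were called in 4 and 3 of 14 alternative fits. The Atf7 call was kept without ID8 replicate 1 or KMF replicate 1 and the Atf1 call without KMF replicate 1. Each was lost without any 1 of the other libraries. Exons of Atf7 overlap those of Gm28047 by 1284 bases on the same strand. Cebpg, a C/EBP protein that pairs with Atf4, rose by 0.66 ± 0.13. Cebpe had 8, 7 and 5 counts in ID8 and 1, 0 and 1 in KMF, which is at least 2.18-fold lower.

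The Phlda genes encode small pleckstrin homology proteins. Phlda1, which follows ERK activity in many tumors, was at 14.7, 15.9 and 13.8 FPKM in ID8 and at 38.4, 28.1 and 32.5 in KMF (1.20 ± 0.13, edgeR adjusted p = 0.000297). Phlda3, a p53 target, rose from 117 ± 12 to 187 ± 17 FPKM (0.71 ± 0.11). Phlda2, an imprinted gene, had 3, 0 and 0 counts in ID8 and 11, 13 and 14 in KMF and was at least 4.23-fold higher.

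In the cascade itself Mapk3 and Map2k1 were abundant and differed little. Mapk3, which encodes ERK1, was at 136, 132 and 143 FPKM in ID8 and at 160, 158 and 151 in KMF. Map2k1, the MEK1 gene upstream of it, was at 65.8, 70.6 and 74.1 FPKM in ID8 and at 80.6, 88.4 and 84.8 in KMF. Each was without overlap, with log2 fold changes of 0.23 ± 0.07 and 0.31 ± 0.08. The Mapk3 call (edgeR adjusted p = 0.0301) was kept in 5 of 14 alternative fits and lost without ID8 replicate 1 or 2 or KMF replicate 1 or 2. The Map2k1 call was lost under upper quartile scaling and without ID8 replicate 1. Mapk6, an atypical MAP kinase (ERK3), rose more, from 16 ± 2.1 to 27.9 ± 4.3 FPKM (0.84 ± 0.15).

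Members of the p38 branch diverged. Map2k3, an activator of p38, rose from 33.6 ± 2.3 to 46.6 ± 1.9 FPKM (0.51 ± 0.08). Map2k6, the other dedicated activator of p38, was at 1.93, 1.67 and 2.03 FPKM in ID8 and at 0.508, 0.684 and 0.678 in KMF (-1.55 ± 0.24, edgeR adjusted p = 0.00147). Mapk13, which encodes p38 delta, was at 1.68, 1.70 and 1.34 FPKM in ID8 and at 0.883, 0.404 and 0.735 in KMF (-1.17 ± 0.33, edgeR adjusted p = 0.0259). Its libraries did not overlap, but the call was lost when ID8 replicate 1, ID8 replicate 2, KMF replicate 2 or KMF replicate 3 was left out and under the replicate block. Map2k3 was thus the higher of the MAP2 kinases for p38 in both lines.

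On the JNK branch, Map2k4, an activator of JNK, fell from 28.3 ± 2.4 to 20.6 ± 1.4 FPKM (-0.42 ± 0.09, edgeR adjusted p = 0.00752). Mapk8ip1, a JNK scaffold, fell from 13.6 ± 2.3 to 6.61 ± 0.80 FPKM (-1.0 ± 0.14). Its relative Mapk8ip2 had 7, 7 and 2 counts in ID8 and 0 in each KMF library, at least 1.74-fold lower. Mapk10, the JNK gene of neurons and heart, had 7, 19 and 19 counts in ID8 and 0, 2 and 3 in KMF, at least 5.08-fold lower. Ksr1, a scaffold of Raf and MEK, fell from 2.13 ± 0.25 to 1.27 ± 0.11 FPKM (-0.70 ± 0.16).

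In the MAP3 tier 3 genes were called higher and 4 lower of 7, beside the same shares of 45.4% and 47.5%. Map3k6, a relative of the stress kinase ASK1 (chr4:133240818-133252929, plus strand), was at 3.73, 5.00 and 3.67 FPKM in ID8 and at 17.6, 14.6 and 18.7 in KMF. All KMF libraries were far above ID8, with a log2 fold change of 2.08 ± 0.16 (edgeR adjusted p = 5.66e-05). Map3k1, which activates JNK through Map2k4, was at 8.23, 8.64 and 9.63 FPKM in ID8 and at 19.5, 20.5 and 18.6 in KMF (1.18 ± 0.08). The study places Map3k1 in a region of copy number loss in KMF, and the part of copy number was not tested. Map3k8, the Tpl2 kinase that activates MEK, was low, at 0.326 to 0.663 FPKM in ID8 and 1.12 to 2.08 in KMF (1.52 ± 0.37, edgeR adjusted p = 0.0132).

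The mixed-lineage and leucine zipper kinases, MAP3 kinases that act mainly on JNK, were lower in KMF. Map3k12 fell from 6.36 ± 0.49 to 3.76 ± 0.85 FPKM (-0.72 ± 0.17), Map3k9 from 1.17 ± 0.087 to 0.515 ± 0.065 FPKM (-1.14 ± 0.16), and Map3k11 from 27.6 ± 2.1 to 22.1 ± 1.0 FPKM (-0.28 ± 0.08). The Map3k11 call was lost without ID8 replicate 1 or 3 or KMF replicate 2 or 3. Map3k13 was at 0.377 to 0.499 FPKM in ID8 and 0.129 to 0.238 in KMF, a call lost without ID8 replicate 1 or KMF replicate 2. Exons of Map3k12 overlap those of Pcbp2 on the opposite strand. In the MAP4 tier, Map4k3 had a log2 fold change of 0.39 ± 0.10, and Map4k4, the most abundant, fell from 71.2 ± 4.5 to 50.4 ± 6.3 FPKM (-0.46 ± 0.10), as did Map4k5 (-0.41 ± 0.08).

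Of the kinases that MAP kinases activate, Rps6ka2 changed most. It encodes RSK3, a ribosomal S6 kinase downstream of ERK (chr17:7170115-7303313, plus strand), and was at 17.6, 17.8 and 15 FPKM in ID8 and at 4.67, 3.75 and 6.43 in KMF. The log2 fold change was -1.72 ± 0.18 (edgeR adjusted p = 0.000277), with no overlap. Rps6ka1, the RSK1 gene, fell less, from 29.1 ± 1.3 to 23.9 ± 1.2 FPKM (-0.25 ± 0.08), and its call was lost when any 1 library but ID8 replicate 3 was left out. Rps6ka4, which encodes the nuclear kinase MSK2, rose by 0.60 ± 0.13 and Mapkapk5 by 0.39 ± 0.08. Exons of Mapkapk5 overlap those of Adam1a by 1805 bases on the same strand.

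**Figure D3:**
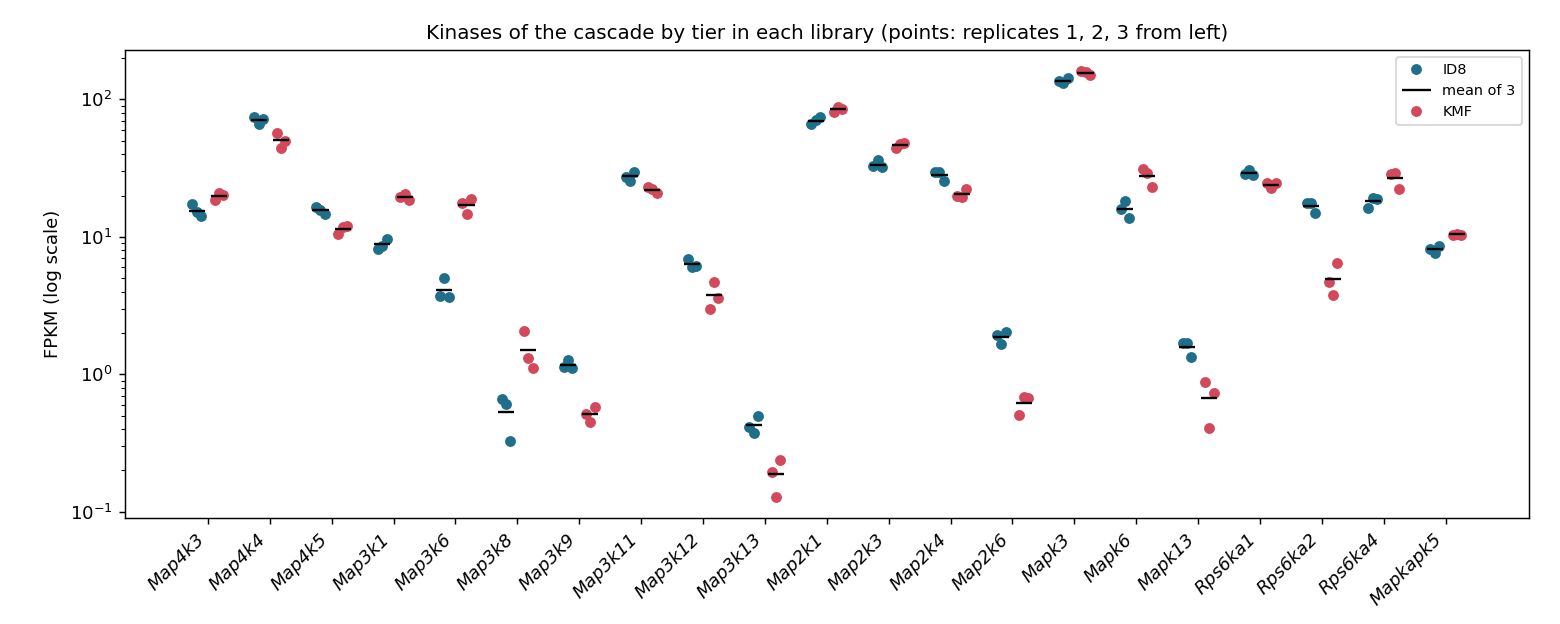
Points are the FPKM of single libraries on a log scale, ID8 in blue and KMF in red, for fitted kinase genes from the MAP4 tier on the left to the kinases downstream of MAP kinases on the right, and black bars are the means of 3. Mapk3 and Map2k1 lie close in both lines, Map3k6 and Map3k1 are higher in KMF, and Map2k6, Mapk13 and Rps6ka2 are lower.

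The inhibitors of the cascade did not share a direction. Of the 6 classical MAP kinase phosphatases 3 were called higher and none lower, and the rest were not called, beside 45.4% called higher and 47.5% lower over all fitted genes. Dusp6, the cytoplasmic phosphatase of ERK and the most abundant of the 6 in ID8, was at 54.5, 63.5 and 46.7 FPKM in ID8 and at 47.8, 32.2 and 37.9 in KMF. KMF replicate 1 lay above ID8 replicate 3, so the lines overlapped. The log2 fold change was -0.44 ± 0.17 (edgeR adjusted p = 0.0785), and 4 of 14 alternative fits called it, among them DESeq2 and upper quartile scaling, with adjusted p-values from 0.0182 to 0.288. Leaving out ID8 replicate 3 or KMF replicate 1 gave a call.

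Dusp4, a nuclear ERK phosphatase, was at 25.4, 35.4 and 24.8 FPKM in ID8 and at 53.4, 44.3 and 46.0 in KMF (0.79 ± 0.16, edgeR adjusted p = 0.00533). It was below Dusp6 in each ID8 library and above Dusp6 in each KMF library. Dusp1, an early gene that acts on p38 and JNK, was at 4.25, 5.39 and 3.32 FPKM in ID8 and at 10.6, 7.24 and 6.30 in KMF (0.93 ± 0.25, edgeR adjusted p = 0.021). Its call was lost without ID8 replicate 1 or ID8 replicate 3. Dusp7 had a log2 fold change of 0.44 ± 0.13, called in 9 of 14 alternative fits and not without ID8 replicate 1, ID8 replicate 3 or KMF replicate 2.

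Dusp10, a phosphatase of JNK and p38, overlapped between the lines, at 4.67, 6.44 and 3.94 FPKM in ID8 and 8.70, 6.34 and 7.16 in KMF (0.60 ± 0.21, edgeR adjusted p = 0.0603). Dusp16, which acts on JNK, was at 10.4, 13.3 and 10.2 FPKM in ID8 and at 9.29, 5.72 and 7.99 in KMF (log2 fold change -0.52 ± 0.19, edgeR adjusted p = 0.0667). Neither was called, although Dusp10 was with DESeq2 and without ID8 replicate 2. Dusp16 was called with DESeq2, under upper quartile scaling, with scaling to library totals alone and without KMF replicate 1. Summed over the 6, the phosphatases were at 108, 134 and 97.8 FPKM in ID8 and at 141, 110 and 116 in KMF, so the sums overlapped.

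Outside the classical group, Dusp22, a small phosphatase linked to JNK signalling, had 102, 109 and 47 counts in ID8 and 10, 10 and 5 in KMF (-3.28 ± 0.51, edgeR adjusted p = 0.00168). Dusp15 had 15, 18 and 3 counts in ID8 and 0 in each KMF library, at least 3.95-fold lower. Dusp18 had a log2 fold change of 0.47 ± 0.12 and was not called under upper quartile scaling or without ID8 replicate 1 or 3.

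Sprouty and Spred genes, feedback inhibitors of Ras and Raf, were listed for 1 gene of each kind and moved in opposite directions. Spry4 was at 15, 15.2 and 15.1 FPKM in ID8 and at 7.55, 7.12 and 11.6 in KMF (-0.74 ± 0.17, edgeR adjusted p = 0.0102). The ID8 libraries were nearly equal and KMF replicate 3 lay above the other KMF libraries, yet below all of ID8. Spred2 was at 18.1, 19.9 and 17.1 FPKM in ID8 and at 30.9, 27.6 and 26.0 in KMF (0.66 ± 0.10, edgeR adjusted p = 0.00144).

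**Figure D4:**
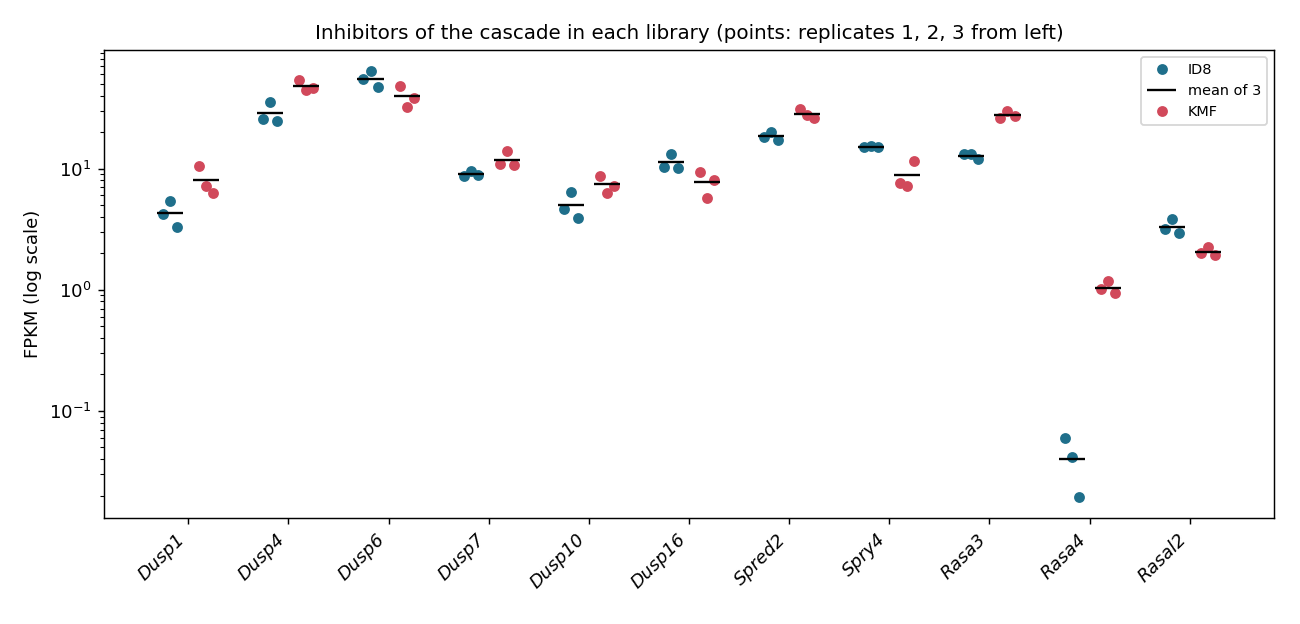
Points are the FPKM of single libraries on a log scale, ID8 in blue and KMF in red, for 11 inhibitors of the cascade along the horizontal axis, and black bars are the means of 3. Dusp6 and Dusp10 overlap between the lines, Spry4 and Rasal2 are lower in KMF, and Rasa4 rises from at most 0.0599 FPKM in ID8 to at least 0.941 in KMF.

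At the level of Ras itself, GTPase-activating proteins, which switch Ras off, and exchange factors, which switch it on, both differed. Rasa4, a calcium-responsive GTPase-activating protein (chr5:136083916-136111860, plus strand), had 7, 4 and 2 counts in ID8 and 94, 108 and 124 in KMF. These correspond to 0.0197 to 0.0599 FPKM in ID8 and 0.941 to 1.18 in KMF (log2 fold change 4.66 ± 0.38, edgeR adjusted p = 7.52e-05). Rasa3 was at 13.1, 13.2 and 12 FPKM in ID8 and at 26.1, 29.6 and 27.1 in KMF (1.15 ± 0.08). Rasal2 fell from 3.31 ± 0.45 to 2.06 ± 0.16 FPKM (-0.65 ± 0.13). The exchange factor genes were low in both lines and lower in KMF. Rasgrf1, an imprinted gene known from neurons, had 129, 85 and 142 counts in ID8 and 6, 1 and 9 in KMF (-4.43 ± 0.46, edgeR adjusted p = 0.000232). Rasgrp3 had 32, 31 and 13 counts in ID8 and 3, 2 and 6 in KMF (-2.74 ± 0.53, edgeR adjusted p = 0.00475).

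The rule also took 4 genes whose letters match but which stand apart from the families above. Atf6b, an endoplasmic reticulum stress factor related to Atf6, fell from 41.3 ± 3.1 to 28.1 ± 0.90 FPKM (-0.51 ± 0.08). The others, Cebpz, Spryd4 and Spryd7, do not belong to the families their symbols resemble and had log2 fold changes of 0.26, 0.37 and -0.44, with Spryd7 not called (edgeR adjusted p = 0.0665) and Cebpz and Spryd4 called in 6 and 3 of 14 alternative fits. Cebpz was not called without ID8 replicate 1 or 2 or KMF replicate 1 or 3. Spryd4 was not called without any 1 of the 6 libraries. Spryd7 was called without KMF replicate 1, with DESeq2, under upper quartile scaling, with scaling to library totals alone and with limma on log2(FPKM + 1).

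Other genes of the pathway that the symbol rule leaves out were taken from a list of 40. Of these, 25 were listed and fitted, and 22 were called, 13 higher and 9 lower, beside 92.9% called, 45.4% higher and 47.5% lower over all fitted genes. Ras genes were among the higher ones, with log2 fold changes of 0.59 ± 0.08 for Hras, 0.70 ± 0.07 for Nras and 0.73 ± 0.11 for Mras. The largest change of the list was that of Ptpn7, from a mean of 1.81 FPKM in ID8 to 0.121 in KMF (-3.88 ± 0.44). Ptprr, low in both lines (-2.99 ± 0.53), and Nf1 (-0.59 ± 0.13) also fell. Shc1, an adaptor between receptors and Ras, rose by 1.07 ± 0.09, while its partner Grb2 fell (-0.48 ± 0.08). Mknk1, a translation factor kinase activated by ERK and p38, fell from a mean of 27.6 to 8.89 FPKM (-1.59 ± 0.13). The Gadd45 proteins, activators of the MAP3 tier, diverged, with Gadd45a at -2.93 ± 0.18, Gadd45b at 1.14 ± 0.27 and Gadd45g at 1.48 ± 0.20.

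A list of 10 genes that are used to read ERK output in tumors had 9 listed genes, of which 6 are members described above. Of the 9, 6 were called higher (Phlda1, Dusp4, Etv4, Etv5, Ccnd1 and Epha4), 1 was called lower (Spry4), and Dusp6 and Epha2 were not called, beside the same shares over all fitted genes. Ccnd1, the cyclin of the G1 phase, was at 34.9, 50.1 and 33.4 FPKM in ID8 and at 165, 169 and 153 in KMF (2.08 ± 0.17, edgeR adjusted p = 7.35e-05). Summed over the 9 genes the level was 236, 279 and 211 FPKM in ID8 and 461, 407 and 426 in KMF, without overlap. Ccnd1 alone made up a large part of the KMF sum, and the list was chosen with earlier results of these data known, so its count supports no direction of the pathway.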

How the data were processed

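Poly-A RNA of 3 ID8 and 3 KMF libraries was sequenced by a service provider. The study's methods name TopHat2 for mapping, and the submitters' processing notes name CASAVA 1.8, STAR 2.5, DESeq2 and mm10. The counting tool, annotation release and use of strand are not given in the sources used here. The positions of all 84 members overlap those of GENCODE M21 on GRCm38. Exons of further members, beyond those named above, also overlap exons of other genes on the same or the opposite strand.

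The deposited counts are raw fragments per gene and library. The deposited FPKM were scaled by the authors to gene length and fragments on genes. The deposited table also gives a signal per line (the mean normalized count), which was not printed. The deposited log2 fold change, p-value and adjusted p-value are the authors' own comparison and were not used, beyond counting that all 7320 listed genes have an adjusted p-value under 0.05 and that 17359 genes had been tested.

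Library totals were recovered from counts, FPKM and length. The tool for the count test was edgeR 4.0.16, run in R 4.3.3 (quasi-likelihood F test, two-sided, TMM, filterByExpr, no covariate), and p-values were adjusted by Benjamini-Hochberg over the 17359 genes, with unlisted genes ranked last. A gene that never exceeds 3 counts in a line has a lower bound in place of a fold change. That floor is 0.0903 to 0.13 CPM (counts scaled to a common total), for counting error only. Alternatives used DESeq2 1.42.0 and limma 3.58.1. Figures and tables used Python 3.11.15, pandas 2.3.3, numpy 2.4.6 and matplotlib 3.10.9. On simulated counts for 6967 genes, 200 of them given a true change of 1 log2 unit, 66.5% of the changed and 3 unchanged genes were called. Far fewer genes changed in the simulation than were called in the data, so its p-value cutoff was stricter. The 66.5% is therefore not the sensitivity of the reported fit. Each pair of libraries from 1 line differed by more than sampling noise (lowest chi-square per degree of freedom 19.9).

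Members and lists were chosen with earlier results of these data known. Named with values are all MAP2 kinases, MAP kinases, classical phosphatases, Sprouty, Spred, Fos, Jun, Ier, Nr4a and Ets genes, apart from results not reported here. In the other roles, the 3 genes of largest change with a mean FPKM of at least 1 in a line were named, as were genes at 3 counts or fewer throughout a line. Other members named here were added after their values were seen.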

Additional observations from a re-analysis of the deposited data

How the results depend on the processing

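Under the 14 alternatives the number of members called ranged from 55 (without ID8 replicate 1) to 82 (DESeq2), against 73, and each count stayed within 1.5 times the reported one. With 1 library left out in turn, 55 to 70 members were called, 36 to 45 of them higher and 19 to 27 lower. The number called at 2-fold or more fell from 23 to 11 with limma on log2(FPKM + 1), whose pseudocount shrinks low genes, and was 17 with at least 10 counts in every library. Of the 66 fitted genes named by the rule above, 20 changed side of the threshold in some alternative and none changed sign. Members named beyond that rule are not in this count. Of them, Klf2, Klf6, Klf11, Map3k11, Map3k13, Rps6ka1, Atf1 and Cebpz also changed side. With the replicate number as a replicate block, 62 members were called, and Map3k11, Mapk13, Mapk3, Rps6ka1, Fosb, Ier2, Atf1, Atf7, Klf2, Cebpz and Spryd4 were not. Same-numbered libraries had correlations of deviations of 0.092, -0.145 and 0.083 over 5981 genes, so the numbers were not taken to pair the samples, and the best match of ID8 replicate 2 was KMF replicate 1. Leaving out ID8 replicate 1 moved the fitted change of Phlda2, which is given only as a bound. Genes with few counts, such as Phlda2, Cebpe, Mapk8ip2 and Dusp15, are limited by depth.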

Other observations

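Other immediate early genes outside the symbol rule were taken from a list of 28, of which 12 that are not members were listed. Of these 9 were called, 7 higher and 2 lower in KMF, beside 92.9% called, 45.4% higher and 47.5% lower over all fitted genes of the table, and as all had been selected on this contrast nothing is read from the count. Id1, an inhibitor of basic helix-loop-helix factors, was at 32.9, 26.3 and 28.6 FPKM in ID8 and at 70.4, 70.3 and 67.3 in KMF (log2 fold change 1.29 ± 0.10, edgeR adjusted p = 5.43e-05). Id3 was at 15.2, 13.9 and 10.3 FPKM in ID8 and at 40.8, 21.5 and 25.1 in KMF (1.18 ± 0.26), where KMF replicate 1 was highest, as for Jun and Nr4a1. Mcl1, a survival protein of the Bcl-2 family, rose from a mean of 49.3 to 78.2 FPKM (0.70 ± 0.07). Thbs1, which encodes the matrix protein thrombospondin-1, went the other way, from 12, 10.8 and 10.9 FPKM in ID8 to 2.06, 1.22 and 1.23 in KMF (-2.87 ± 0.21, edgeR adjusted p = 5.2e-05). Zfp36l1, an RNA-binding protein that destabilizes early transcripts, fell from 37.1 to 29.4 FPKM (-0.29 ± 0.08). These genes had been selected on the same libraries as the members, and no cause was tested.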
